A study of Mus musculus with 6 samples.

Results

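The AP-1 and BATF transcription factors were followed by RNA-seq in Th17 cells carrying wild-type (WT) RORγt or the RORγtN275D substitution. The 9 genes were chosen by symbol: *Fos*, *Fosb*, *Fosl1* and *Fosl2* of the FOS family, *Jun*, *Junb* and *Jund* of the JUN family, and *Batf* and *Batf3*. All 9 were among the 16244 genes of the table, and all 9 passed the filter of a mean of at least 10 normalized reads that left 11908 genes for testing. The comparison asked how the mutation alters the transcripts of inflammatory Th17 cells. Naive CD4+ T cells were taken from the spleens of WT (C57BL/6NJ) mice and of RORγtN275D knockin mice on a C57BL/6 background, both aged 6 to 12 weeks and of either sex, and 3 libraries were made per genotype. Both genotypes were activated with anti-CD3 and anti-CD28 and cultured for 3 days toward the pathogenic Th17 state. The series' text names IL-6, IL-1β and IL-23 as the cytokines, and the methods describe a pathogenic mix that also holds TGF-β and antibodies to IL-4 and IFN-γ. The substrain of the knockin mice was not given, nor whether the WT donors of these libraries were littermates. A difference of substrain or source therefore cannot be told apart from the mutation. The knockin allele was carried by every cell of the mouse and not by T cells alone. The zygosity of the donors, and whether the 3 libraries of a genotype came from separate mice or cultures, were not given, so the p-values measure the spread between libraries, which may be technical.

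AP-1 is a pair of basic leucine zipper (bZIP) proteins. FOS proteins cannot pair with each other and bind DNA with a JUN partner, whereas JUN proteins can also pair among themselves. BATF and BATF3 take the place of FOS in such pairs, lack its activation domain, and with JUN proteins and the interferon regulatory factors IRF4 or IRF8 bind composite sites in lymphocytes. T cell receptor signaling induces *Fos*, *Fosb*, *Jun* and *Junb* within minutes as immediate early genes, and BATF, JUNB and IRF4 are required for full Th17 differentiation.

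The libraries held between 17659035 and 18510878 reads on genes. A normalized read is a read multiplied by the factor that the authors gave its library. WT replicate 3 lay farthest from its group mean (SD over genes of 0.155 on the log2 scale), and it was the highest WT library for 8 of the 9 members, *Batf3* being the exception. The substitution does not remove transcript, so gene totals cannot check the genotype. Th17 markers were abundant. For the marker genes, higher and lower refer to the limma calls described below, which took 24.7% and 26.1% of all genes tested. The 7 genes used (4 higher, 2 lower) summed to between 72922 and 77063 normalized reads in WT and between 85008 and 85919 in RORγtN275D libraries. B cell markers also moved with genotype, with 4 of 5 tested genes higher (3 under quantile scaling) and sums of 1117 to 1155 in WT against 1687 to 1754 in the mutant, most of it *Ebf1*, while *Ms4a1* had at most a mean of 5.96. Macrophage and monocyte markers summed to 89.8 to 108 against 105 to 130 (1 of 3 tested higher, 1 lower, with *Lyz2* and *Csf1r* under 10), and the 4 dendritic cell markers in the table to 52.5 to 77.6 against 83.0 to 102 (*Flt3* higher, 1 of 2 tested). The 3 CD8 T and natural killer markers in the table summed to 120 to 142 against 172 to 179. Of the 2 tested, *Cd8b1* was higher (means of 98.9 in WT and 148 in the mutant) and *Cd8a* was not called (32.6 and 27.6). *Klrb1c* lay under the filter, with means of 1.01 and 0. The only γδ T cell marker in the table, *Sox13*, was higher (log2 fold change 0.64), though not called under quantile scaling (0.43, adjusted p = 0.101 by limma). The part of these cells in the members' values was not tested, and in bulk RNA fewer cells of a type and less RNA per cell cannot be told apart.

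Normalized reads plus a pseudocount of 1 were compared on the log2 scale by limma, with p-values adjusted over all genes tested by the Benjamini-Hochberg method, and a gene was called at an adjusted p under 0.05. All 9 members were called, 2 higher (*Jun*, *Batf3*) and 7 lower in RORγtN275D cells. Of all genes tested, 50.9% were called, 24.7% higher and 26.1% lower. Among genes with a mean of at least 100 normalized reads, where the members lie, these shares were 54.7%, 24.5% and 30.2%. No member passed the 2-fold minimum, which 3.59% of all genes passed, and 4 members changed by at least 1.5-fold. The libraries of the genotypes did not overlap for 8 of the 9 members, *Jund* being the exception, and for 57.7% of all genes. The members' median log2 fold change was -0.51, beside -0.003 over all genes tested. An exact permutation test of 3 libraries against 3 cannot give a two-sided p below 0.1, the value of every single comparison whose libraries did not overlap.

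**Figure D1:**
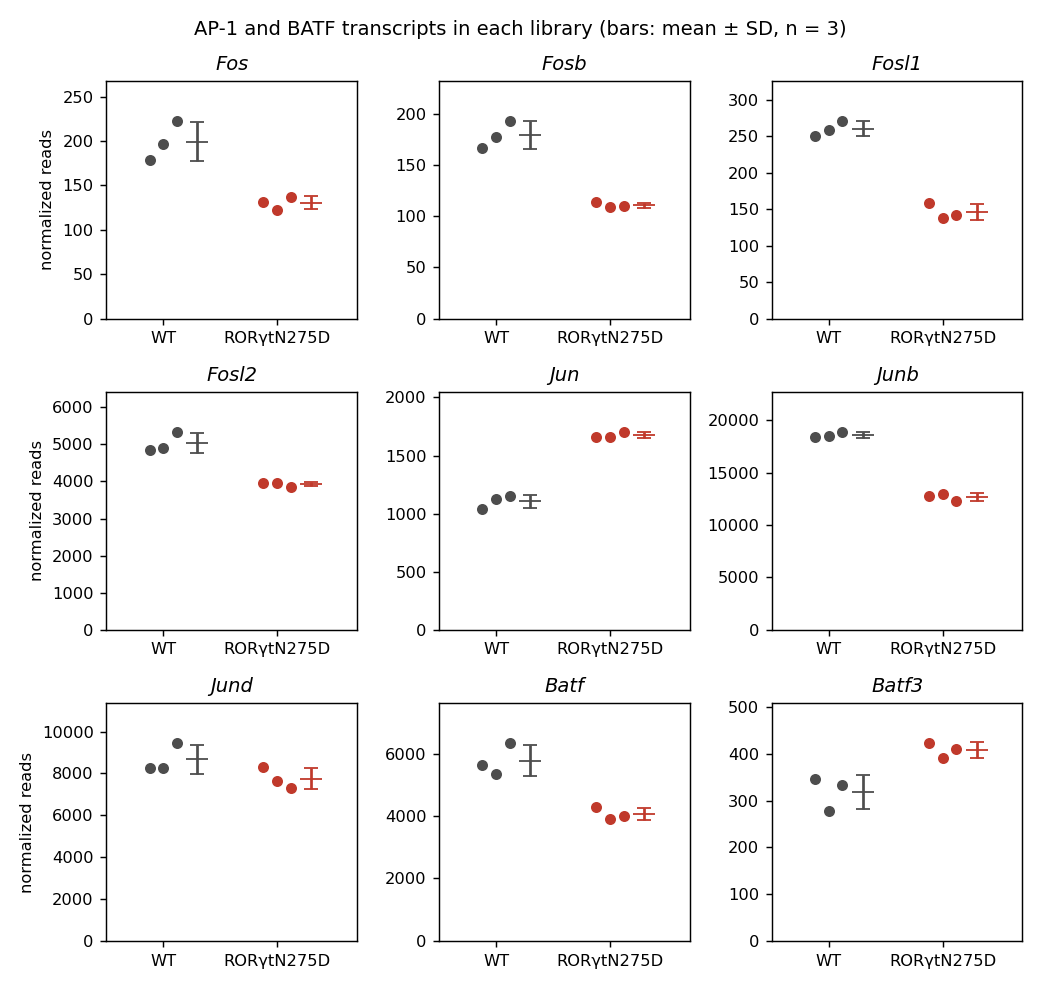
Normalized reads of the 9 AP-1 and BATF genes (vertical axes, each from 0) in the 3 WT (grey) and 3 RORγtN275D (red) libraries, with the mean ± SD (n = 3) beside the points. The mutant points lie above the WT points for *Jun* and *Batf3*, below them for 6 genes, and among them for *Jund*.

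Among the JUN genes the direction was split. *Jun* (GRCm38.p6 chr4:95049036-95052222, minus strand) is a gene of 1 exon that encodes c-JUN, a strong transcriptional activator. It had 1043, 1129 and 1149 normalized reads in the WT libraries and 1661, 1662 and 1705 in the RORγtN275D libraries. Every mutant library lay above every WT library, and the means were 1107 ± 56.6 and 1676 ± 24.7 (SD, n = 3). The log2 fold change of 0.60 (standard error, SE, of 0.05, adjusted p = 4.68e-08 by limma) corresponded to 1.51-fold.

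*Junb* (chr8:84976909-84978748, minus strand), also a gene of 1 exon, encodes a weaker activator that can restrain c-JUN at shared sites and that pairs with BATF in Th17 cells. It was the most abundant member, ranking 85 among the 16244 genes by its WT mean and 139 by its mutant mean. Its normalized reads were 18377, 18521 and 18899 in WT and 12788, 12998 and 12264 in RORγtN275D libraries. The WT libraries were all higher, with means of 18599 ± 270 and 12683 ± 378 (SD, n = 3). The log2 fold change was -0.55 (SE 0.03, adjusted p = 1.59e-09 by limma), the smallest adjusted p of the members. *Jun* and *Junb* therefore changed in opposite directions, and their log2 ratio of normalized reads differed by 1.15 between the genotypes (exact permutation p = 0.1, two-sided).

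*Jund* (chr8:70697739-70700616, plus strand) encodes the JUN protein that resting cells already make. Its normalized reads were 8267, 8279 and 9458 in WT and 8284, 7652 and 7284 in RORγtN275D libraries. The highest mutant library lay above 2 of the 3 WT libraries. The log2 fold change was -0.16 (95% interval -0.27 to -0.05, adjusted p = 0.0170 by limma). The call was lost under quantile scaling (log2 fold change -0.11, adjusted p = 0.104), with a prior that ignores expression level (adjusted p = 0.133), and without RORγtN275D replicate 2 (-0.16, adjusted p = 0.0597) or 3 (-0.12, adjusted p = 0.110), all by limma. Without WT replicate 3 the log2 fold change was -0.10 (adjusted p = 0.0288 by limma). An antisense gene, *Gm11175*, shares 877 exon bases with *Jund*, and the strand setting of the counting was not given.

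The sequences before the start sites are shown for *Fos* and *Junb*, which fell, and for *Jun*, which rose, because AP-1 genes are known to be switched on through short elements there. Each is the 250 bases upstream of the RefSeq start (GRCm38.p6), written 5′ to 3′ on the gene's own strand. Capitals mark TGACG, the left part of the cAMP response element, in *Fos* and *Junb*, and TGACATCA, a variant AP-1 element, in *Jun*.
Fos: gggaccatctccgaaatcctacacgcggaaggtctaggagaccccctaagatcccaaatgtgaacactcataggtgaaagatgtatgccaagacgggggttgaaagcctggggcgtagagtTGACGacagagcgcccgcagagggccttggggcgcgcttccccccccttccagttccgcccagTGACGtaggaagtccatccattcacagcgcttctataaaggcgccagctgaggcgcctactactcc
Junb: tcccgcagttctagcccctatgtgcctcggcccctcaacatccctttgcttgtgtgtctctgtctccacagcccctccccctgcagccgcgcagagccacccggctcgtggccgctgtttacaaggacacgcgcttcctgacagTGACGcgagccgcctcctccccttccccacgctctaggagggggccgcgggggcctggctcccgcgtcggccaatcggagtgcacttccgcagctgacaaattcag
Jun: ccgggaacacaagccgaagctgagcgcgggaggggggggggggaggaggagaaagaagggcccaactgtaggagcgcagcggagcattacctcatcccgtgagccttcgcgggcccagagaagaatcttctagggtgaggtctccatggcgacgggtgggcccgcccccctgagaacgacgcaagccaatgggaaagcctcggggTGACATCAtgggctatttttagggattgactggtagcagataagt
They lie at chr12:85473640-85473889 (plus strand), chr8:84978749-84978998 (minus strand) and chr4:95052223-95052472 (minus strand). The TGACG matches of *Fos* lie 129 to 125 and 66 to 62 bases before the start, that of *Junb* 106 to 102, and the TGACATCA of *Jun* 45 to 38. Of the 9 members, 8 were in the promoter table (*Fosl1* was not). TGACG, searched on both strands and contained in the full element TGACGTCA, was found in 4 of the 8 (*Fos*, *Fosb*, *Junb*, *Batf*) and in 17.8% of all 32851 promoters. All 4 of these genes were lower in RORγtN275D cells, as were *Fosl2* and *Jund* of the other 4, and TGACG was chosen for the search after the sequences had been looked at. TGACATCA was found in *Jun* alone of the 8 and in 2.93% of all promoters. The AP-1 element TGANTCA (6.75% of all promoters), the full TGACGTCA (1.55%), the CArG box bound by SRF (1.47%) and TAGGTCA, a core of the ROR response element (2.23%), were found in none of the 8 windows. CCAAT was found in *Jun* and *Junb* (33.8% of all promoters) and ACGTG, the core bound by HIF-1, in *Jund* and *Batf3* (16.6%). The *Jund* window lies before the RefSeq start at base 70697739, whereas the GENCODE model of the gene starts at base 70698949. What was found or not found for *Jund* therefore depends on the annotation. Elements more than 250 bases upstream were not searched, so an absence holds for the window alone. All matches are letters in a window and not measured binding.

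All 4 FOS genes were lower in RORγtN275D cells. *Fosl2* (chr5:32136472-32157840, plus strand), which encodes FRA-2, was the FOS gene with the most reads, 4856, 4896 and 5342 in WT and 3961, 3950 and 3861 in RORγtN275D libraries. All 3 mutant libraries were lower, with means of 5031 ± 269 and 3924 ± 54.6 (SD, n = 3). Its log2 fold change of -0.36 (SE 0.04, adjusted p = 2.80e-06 by limma) was the smallest of the FOS genes in size.

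*Fosl1* (chr19:5447698-5455938, plus strand) encodes FRA-1, which like FRA-2 lacks the strong activation domain of FOS. Its normalized reads were 250, 258 and 271 in WT and 158, 137 and 142 in RORγtN275D libraries. The mutant libraries were all lower, and the means were 260 ± 10.5 and 146 ± 10.6 (SD, n = 3). The log2 fold change of -0.83 (SE 0.09, adjusted p = 8.97e-07 by limma) was the largest of the members in size. *Ccdc85b* on the opposite strand shares 1163 exon bases with *Fosl1*, so reads of the pair could be mixed if strand was not used in counting.

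*Fos* (chr12:85473890-85477274, plus strand) and *Fosb* (chr7:19302696-19310118, minus strand) encode the FOS proteins with strong activation domains, and their transcripts are short-lived. *Fos* had 179, 197 and 223 normalized reads in WT and 132, 122 and 137 in RORγtN275D libraries. Every WT library was above every mutant library, and the log2 fold change was -0.60 (SE 0.10, adjusted p = 0.000110 by limma). *Fosb* had 167, 178 and 194 normalized reads in WT and 114, 109 and 110 in RORγtN275D libraries. Its log2 fold change was -0.68 (SE 0.10, adjusted p = 2.14e-05 by limma), again without overlap. The low level of both on day 3, with 109 to 227 reads per library, gave counting errors (coefficient of variation from read counts alone) of 7.78% for *Fos* and 8.30% for *Fosb*, against 0.799% for *Junb*.

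The BATF genes moved in opposite directions. *Batf* (chr12:85686720-85709087, plus strand) encodes the partner of JUN proteins on which Th17 differentiation depends. It had 5645, 5351 and 6344 normalized reads in WT and 4294, 3908 and 3992 in RORγtN275D libraries. All mutant libraries were lower, with means of 5780 ± 510 and 4065 ± 203 (SD, n = 3), a log2 fold change of -0.51 (SE 0.05, adjusted p = 1.17e-06 by limma).

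*Batf3* (chr1:191098414-191108943, plus strand), best known for its role in the development of a class of dendritic cells, is also made by activated T cells. Its normalized reads were 345, 277 and 334 in WT and 423, 390 and 410 in RORγtN275D libraries. The mutant libraries were all higher, and the means were 319 ± 36.3 and 408 ± 16.6 (SD, n = 3). The log2 fold change was 0.36 (SE 0.08, adjusted p = 0.00161 by limma), and it was 0.26 without WT replicate 2, the lowest library (adjusted p = 0.00813 by limma). The 4 of 6 dendritic cell markers in the table summed to 52.5 to 77.6 normalized reads in WT and 83.0 to 102 in RORγtN275D libraries. Of the 2 tested, *Flt3* was higher (means of 21.3 and 44.2). *Zbtb46* was not called (log2 fold change 0.18, adjusted p = 0.468 by limma). *Xcr1* (means of 2.98 in WT and 1.66 in the mutant) and *Itgax* (4.33 and 5.99) lay under 10 and went in opposite directions. The part of dendritic cells in the *Batf3* values was not tested. Per library the log2 ratio of *Batf3* to *Batf* differed by 0.87 between genotypes (exact permutation p = 0.1, two-sided).

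*Fos* and *Batf* lie 209.4 kb apart on chromosome 12, and both fell. The RefSeq annotation holds 1 protein-coding gene between them, *Jdp2* (chr12:85598656-85639878), which encodes a bZIP repressor that pairs with JUN proteins. *Jdp2* rose, from 34.3, 40.3 and 29.5 normalized reads in WT to 81.9, 74.2 and 93.8 in RORγtN275D libraries. Its log2 fold change was 1.24 (SE 0.16, adjusted p = 8.94e-06 by limma). The position of *Jdp2* was looked up after its values were seen.

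**Figure D2:**
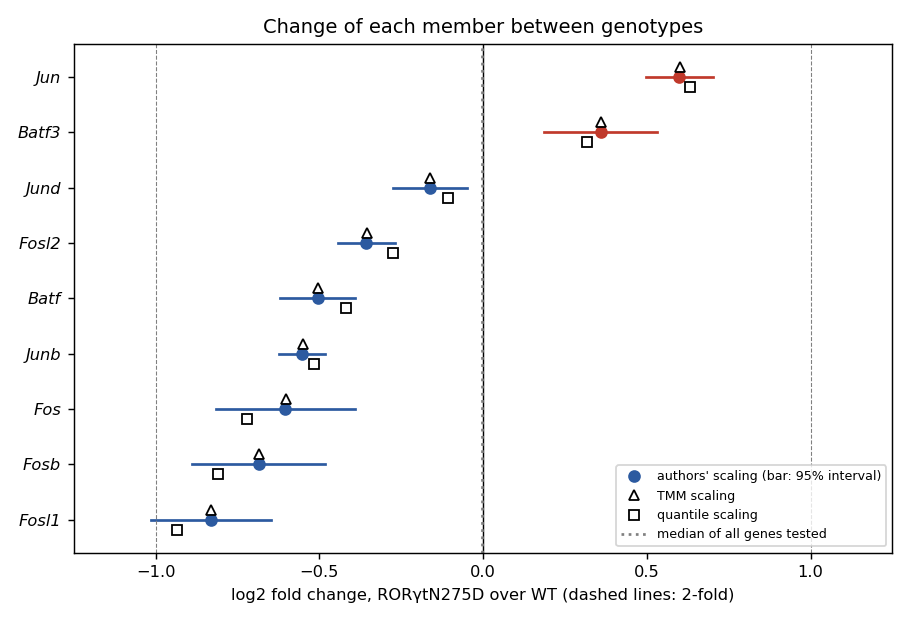
Log2 fold change (horizontal axis, RORγtN275D over WT) of each member with its 95% interval (circles and bars, red for higher and blue for lower), beside TMM (triangles) and quantile (squares) scaling of the same libraries. *Jun* and *Batf3* lie to the right of 0 and the other 7 to the left under each scaling, all inside the dashed 2-fold lines, and *Jund* lies nearest to 0.

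Levels of different genes were compared per kilobase of exon (GENCODE vM21 basic models). In WT cells the order by mean normalized reads per kilobase was *Junb* (10281), *Batf* (6053), *Jund* (5197), *Fosl2* (770), *Batf3* (398), *Jun* (347), *Fosl1* (139), *Fos* (94.6) and *Fosb* (47.4). In RORγtN275D cells it was *Junb* (7011), *Jund* (4640), *Batf* (4256), *Fosl2* (600), *Jun* (526), *Batf3* (509), *Fosl1* (78.2), *Fos* (61.9) and *Fosb* (29.3). Across libraries the ranges of the neighbours that changed places overlapped: *Batf* ranged from 5603 to 6643 and *Jund* from 4956 to 5670 per kilobase in WT libraries, and in mutant libraries *Batf* ranged from 4093 to 4496 and *Jund* from 4367 to 4966. Within a library, however, *Batf* lay above *Jund* in all 3 WT libraries and below it in all 3 mutant libraries. Their ratio per kilobase was 1.19, 1.13 and 1.17 in WT and 0.905, 0.892 and 0.957 in RORγtN275D libraries (exact permutation p = 0.1, two-sided). The *Jund* model used counted 1668 exon bases where the RefSeq gene spans 2878. Which of the pair is higher therefore depends on the annotation, whereas the relative change of their ratio does not. The order of the members, their sum and the shares below use the same model and depend on the annotation too. *Jun* and *Batf3* were in a different order in libraries of the same genotype, with ratios per kilobase of 0.759, 1.02 and 0.864 in WT and 0.986, 1.07 and 1.04 in RORγtN275D libraries (exact permutation p = 0.2, two-sided), and these overlapped. Summed over the 9 members, normalized reads per kilobase went from 23327 ± 1160 to 17712 ± 619 (SD, n = 3, exact permutation p = 0.1, two-sided), without overlap.

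No difference in the make-up by family was resolved, and 3 libraries against 3 cannot show that it was unchanged. JUN transcripts held 67.9% ± 1.11 of the summed level per kilobase in WT and 68.7% ± 0.828 in RORγtN275D cells (SD, n = 3, exact permutation p = 0.4). BATF transcripts held 27.6% ± 1.13 and 26.9% ± 0.812 (SD, n = 3, exact permutation p = 0.4), and FOS transcripts 4.51% ± 0.0798 and 4.35% ± 0.0892 (SD, n = 3, exact permutation p = 0.2). The libraries of the genotypes overlapped for each family, for FOS through WT replicate 1 (4.41%) and RORγtN275D replicate 3 (4.44%). With *Junb*, the largest component, left out, the difference between genotypes in the JUN share was 5.76 percentage points instead of 0.877, that of BATF -4.89 instead of -0.720 and that of FOS -0.867 instead of -0.157.

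Within families the libraries of the genotypes separated for most members. The share of *Junb* went from 44.1% to 39.6% of the summed level, that of *Jund* from 22.3% to 26.2% and that of *Jun* from 1.49% to 2.97%. *Jund* thus took a larger share although its own level was not higher. The sizes of all these shares depend on the exon model of *Jund*. *Batf* went from 25.9% to 24.0% and *Batf3* from 1.71% to 2.88%, while *Fosl1* went from 0.598% to 0.441% and *Fosb* from 0.203% to 0.166%. For these 7 genes the libraries did not overlap (exact permutation p = 0.1 each, two-sided, over 9 genes compared, the smallest p possible). By level, the libraries did not overlap for 57.7% of all genes tested. Shares of a library sum to a fixed total, so a fall of 1 share raises others. The 7 are therefore not 7 separate results. *Fosl2*, at 3.30% and 3.39%, and *Fos*, at 0.405% and 0.350%, overlapped (exact permutation p = 0.3 and 0.2).

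**Figure D3:**
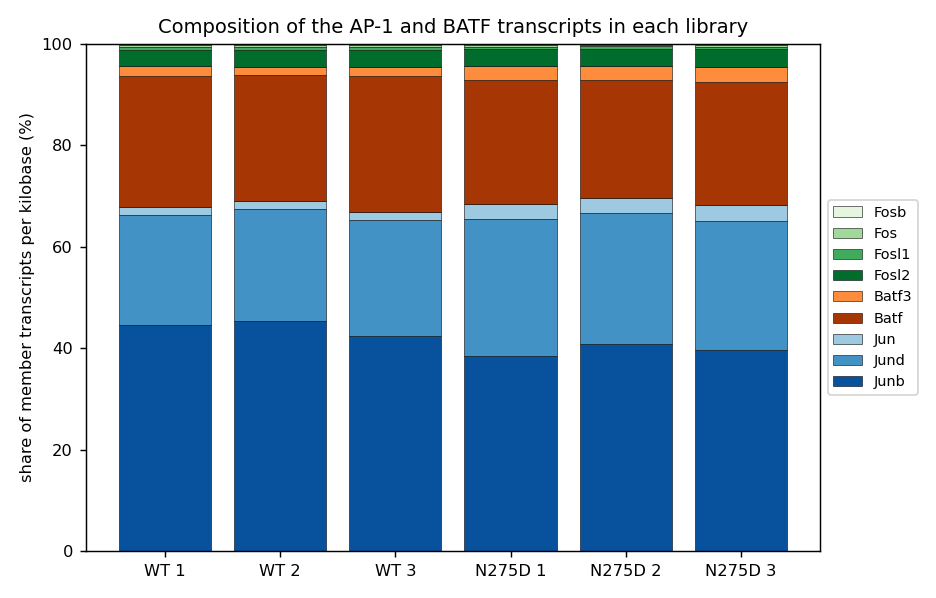
Share of each member (vertical axis, percent of the summed normalized reads per kilobase) in the 3 WT and 3 RORγtN275D (N275D) libraries, with JUN genes in blue, BATF genes in orange and FOS genes in green. *Junb* and *Batf* bands are narrower and the *Jund*, *Jun* and *Batf3* bands wider in the mutant libraries, while the family totals stay near 68% JUN, 27% BATF and 4% FOS.

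Ratios taken within a library do not depend on the scaling between libraries. *Jun* to *Junb* per kilobase was 0.0322, 0.0346 and 0.0345 in WT and 0.0737, 0.0725 and 0.0788 in RORγtN275D libraries, so that the mutant mean was 2.22 times the WT mean. *Batf3* to *Batf* per kilobase was 0.0729, 0.0618 and 0.0628 in WT and 0.118, 0.119 and 0.122 in RORγtN275D libraries, 1.82 times the WT mean. The FOS to JUN family ratio was 0.0664 ± 0.00143 in WT and 0.0632 ± 0.00165 in RORγtN275D cells (SD, n = 3, exact permutation p = 0.2), and BATF to FOS was 6.13 ± 0.299 and 6.19 ± 0.215 (SD, n = 3, exact permutation p = 0.8).

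*Irf4*, the main IRF partner of BATF in T cells, was slightly higher in the mutant, with a log2 fold change of 0.11 (SE 0.03, adjusted p = 0.0145 by limma). The call of *Irf4* was lost with a prior that ignores expression level and without WT replicate 1, RORγtN275D replicate 2 or RORγtN275D replicate 3, each of which left 0 of the 2 IRF genes called. *Irf8* had a log2 fold change of 0.11 that was not called (adjusted p = 0.0906 by limma). With *Batf* lower, the ratio of *Irf4* to *Batf* normalized reads went from 1.35 ± 0.144 in WT to 2.06 ± 0.120 in RORγtN275D cells (SD, n = 3, exact permutation p = 0.1, two-sided), without overlap.

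**Figure D4:**
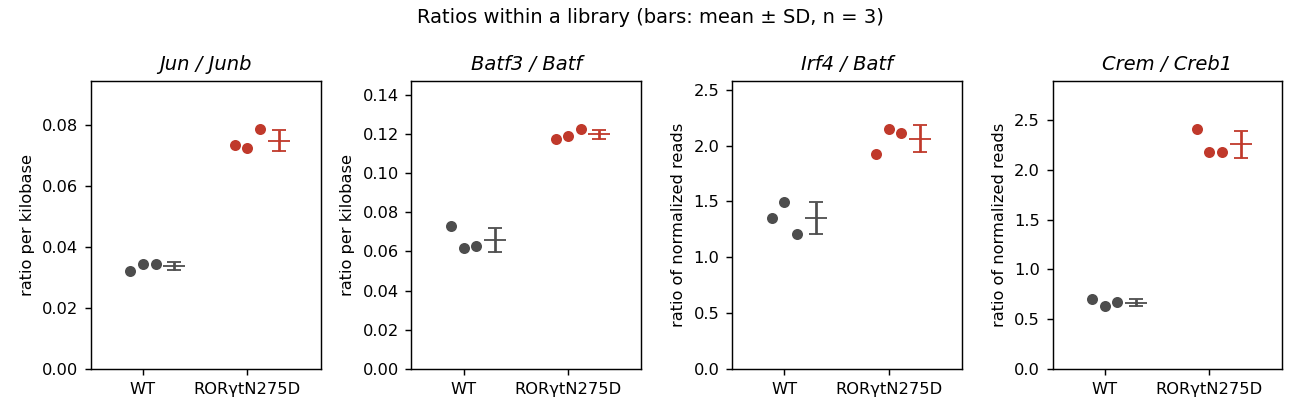
Ratios within each library (vertical axes, from 0) for *Jun* to *Junb* and *Batf3* to *Batf* per kilobase and for *Irf4* to *Batf* and *Crem* to *Creb1* in normalized reads, in WT (grey) and RORγtN275D (red) libraries with mean ± SD (n = 3). All 3 mutant points lie above all 3 WT points in each panel.

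Of 30 other bZIP genes, 26 were tested, and 15 were higher and 3 lower, and the median log2 fold change was 0.16 (69.2% called, beside 50.9% of all genes). The 3 largest increases were the only calls of the list at 2-fold, and all 3 encode factors that can act as repressors at AP-1 or cAMP response elements. Repression at such elements was not tested. *Crem*, whose locus also gives the inducible repressor ICER, had 976, 921 and 865 normalized reads in WT and 2332, 2295 and 2383 in RORγtN275D libraries, a log2 fold change of 1.34 (SE 0.05, adjusted p = 4.50e-12 by limma). The gene totals do not separate *Crem* isoforms. *Atf3*, a stress-induced factor that pairs with JUN proteins, had 238, 304 and 318 normalized reads in WT and 660, 678 and 617 in RORγtN275D libraries, a log2 fold change of 1.19 (SE 0.09, adjusted p = 2.26e-08 by limma). The 3 called decreases were *Maff* (log2 fold change -0.45), a small MAF protein, *Creb1* (-0.42), the activator at cAMP response elements, and *Cebpd* (-0.21), which lay just inside the threshold (adjusted p = 0.0493 by limma) and outside it under TMM scaling (0.0504) and without WT replicate 3 (0.102). *Crem* and *Creb1* thus changed in opposite directions, and their ratio of normalized reads went from 0.665 ± 0.0353 to 2.26 ± 0.134 (SD, n = 3, exact permutation p = 0.1, two-sided).

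The signaling genes upstream of AP-1 were divided. Of 27 tested genes of the MAP kinase routes, 9 were higher and 8 lower, and the median log2 fold change was 0.004. The share called was 63%, beside 50.9% of all genes and 54.7% of genes with a mean of at least 100 normalized reads. With a prior that ignores expression level, 11 of them were called. The largest increases were *Map2k6* (log2 fold change 0.59), a kinase that activates p38, *Map2k1* (0.50), which encodes the ERK kinase MEK1, and *Mapk3* (0.35), which encodes ERK1. The largest decreases were *Map2k3* (-0.33), the other main p38-activating kinase, *Map3k7* (-0.27), which encodes TAK1, and *Hras* (-0.26). None changed by 2-fold. The 9 SRF, ETS and MEF2 genes, with the SRF coactivators *Mrtfa* and *Mrtfb* among them, encode proteins that act at promoters of immediate early genes. Of these 9, *Mef2c* (0.62, from a mean of 32.6 to 50.5 normalized reads) and *Mef2a* (0.21) were called higher and none lower (22.2% called). *Srf* itself had 2788 ± 200 normalized reads in WT and 2753 ± 30.8 in RORγtN275D cells (SD, n = 3), a log2 fold change of -0.02 (95% interval -0.12 to 0.08, adjusted p = 0.804 by limma).

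Most other immediate early genes were lower, as *Fos*, *Fosb* and *Junb* were. Of 17 tested, 13 were lower and 3 higher (94.1% called), and their median log2 fold change was -0.37. The largest decreases were *Egr3* (log2 fold change -1.55) and *Nr4a1* (-0.84), which encode transcription factors induced by the T cell receptor, and *Btg2* (-0.81), an antiproliferative gene. Like *Jun*, *Dusp5* (0.75) and *Dusp1* (0.24), which encode phosphatases of MAP kinases, and *Myc* (0.17), which drives cell growth, were higher.

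Of the 11 tested cytokine and activation genes with well-known AP-1 sites, 6 were lower and 3 higher (81.8% called), and their median log2 fold change was -0.20. *Il2*, whose promoter is bound by NFAT together with FOS and JUN, had 10101, 10626 and 10355 normalized reads in WT and 2104, 2222 and 2100 in RORγtN275D libraries, a log2 fold change of -2.27 (SE 0.04, adjusted p = 3.32e-16 by limma). *Tnf* (-0.99) and *Csf2* (-0.64), which encodes GM-CSF, were the next lowest. *Ifng* (0.81), *Il3* (0.41) and *Il2ra* (0.30) were higher, and *Il4* and *Il5* were under the filter. Among 8 genes known to depend on BATF in Th17 cells, 6 were higher and 1 lower (87.5% called), with a median of 0.26. *Batf* itself was lower, and a link between its level and these genes was not tested. *Il23r* (0.70), the receptor chain for IL-23, *Il22* (0.36), *Rora* (0.26) and *Il17a* (0.23) were higher. So were *Ahr* (0.32, or 0.21 without WT replicate 3) and *Il17f* (0.26, or 0.16 under quantile scaling), while *Il21* (-0.60) was lower. *Il1r1* was not called (-0.09, adjusted p = 0.153 by limma), but was called lower without WT replicate 3 (-0.15, adjusted p = 0.00495 by limma). These lists were written with earlier results of the same libraries known, so their directions are descriptions and not independent evidence.

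**Figure D5:**
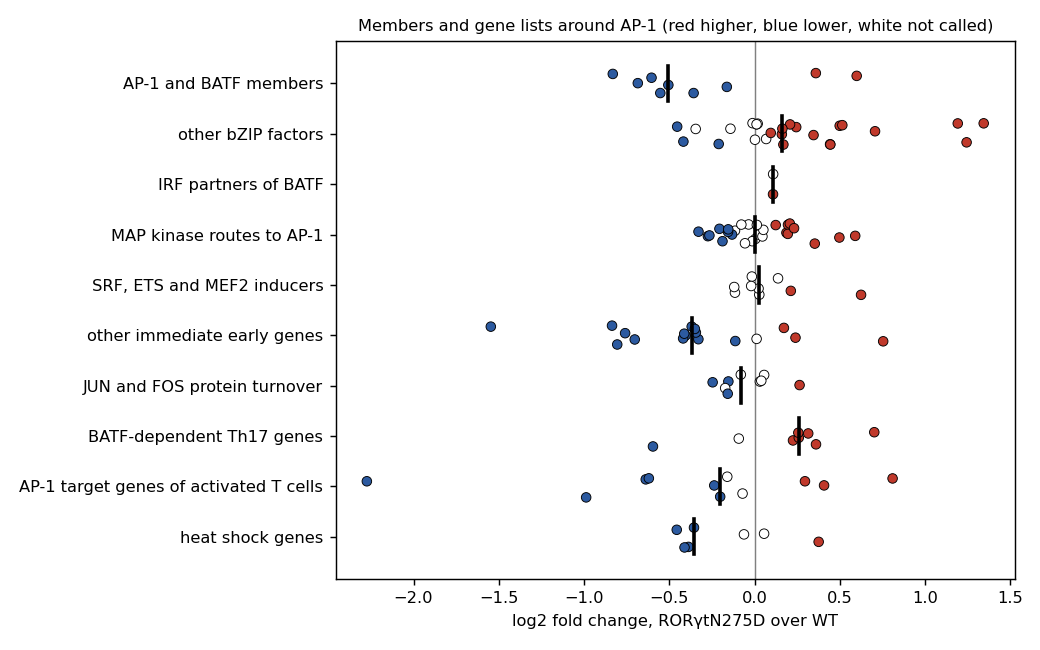
Log2 fold change (horizontal axis, RORγtN275D over WT) of each tested gene of the members and of 9 gene lists (rows), colored red for called higher, blue for called lower and white for not called, with a black line at each list's median. The members (median -0.51) and other immediate early genes (-0.37) lie mostly to the left, other bZIP genes (0.16) and BATF-dependent genes (0.26) mostly to the right, and *Il2* at -2.27 is the farthest point.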

How the data were processed

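Poly-A RNA-seq of 3 WT and 3 RORγtN275D Th17 libraries was analysed, with groups taken from the sample labels. According to the study's methods, the authors aligned reads to mm10 with STAR, counted them per gene with featureCounts and compared genotypes with DESeq2. The labels name a directional poly-A kit and the methods another strand-specific one, and the strand setting of the counting was not given in the sources used here. The deposited values are a signal: the authors scaled the read number of each gene by 1 factor for each library, so that 100% of them divide by it into whole reads (tolerance 1e-06). The deposited log2 fold changes and q-values of the authors were not used, and 0 columns of per-sample values were left out.

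Genes with a mean of at least 10 were tested with limma (version 3.58.1, R 4.3.3) on log2(normalized reads + 1), with a trended prior of 12.0 degrees of freedom and no block, and a gene was called where its adjusted p lay under 0.05, with a further count at 2-fold. The fit was also run on simulated data as a check of the code, which cannot show whether the libraries were independent. The pseudocount understates fold changes of low genes. Single values were compared by exact permutation tests over libraries.

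Members, gene lists and tests were chosen with earlier results of these data known. Named genes are all members, at most the 3 largest called increases and decreases of a list, and any gene of a list under 10. A small number of listed genes are not reported here and were left out of the list counts. The exon lengths are from GENCODE vM21, and positions and promoters from RefSeq (GRCm38.p6, the build of mm10). With 109 to 19240 reads per member and library, counting errors lay between 0.799% and 8.30%. Same-numbered libraries did not deviate together (correlations of -0.0455, 0.0407 and -0.0828), so the numbers were not taken as pairs. Alternatives were other pseudocounts, filters, thresholds and scalings, a prior without a trend, the replicate block and each library left out.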

Additional observations from a re-analysis of the deposited data

How the results depend on the processing

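The direction of all 9 members held under all alternatives run, and the call of every member but *Jund* held too. Over these alternatives 8 or 9 members were called, always 2 of them higher, while the share of all genes called ranged from 36.2% (no filter) to 55.2% (mean of at least 100). With a 1.5-fold instead of a 2-fold minimum, 4 members were called instead of 0. The log2 fold change of *Jund* was not called under quantile scaling (-0.11), with a prior without a trend (-0.16), and without RORγtN275D replicate 2 or 3. With each library left out in turn it ranged from -0.21 to -0.10. The replicate block gave 9 members called, and 5727 of all genes instead of 6056. It changed no member's call, and 2 of the 6 libraries correlated best with the other genotype's library of the same number. Among the lists, the IRF partners had 0 called with a prior without a trend and 0 to 1 with each library left out, the MAP kinase routes had 11 called with that prior, the SRF, ETS and MEF2 genes had 1 called with a mean of at least 100, and the protein turnover genes 2 to 5 with each library left out. Without *Junb* the differences in family share were -0.867 (FOS), 5.76 (JUN) and -4.89 (BATF) percentage points. With each library left out they ranged from -0.204 to -0.116, 0.354 to 1.46 and -1.33 to -0.214. The cause was not tested. The planned count-based tests on recovered reads were not run. Depth limits *Fos*, *Fosb*, *Fosl1* and *Batf3* most, with counting errors of 5.24% to 8.30%.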

Other observations

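Proteins of the AP-1 family are removed by ubiquitin ligases, and the transcripts of that machinery changed little. Of 9 genes, 3 were lower and 1 higher (44.4% called, beside 50.9% of all genes), with a median log2 fold change of -0.08. *Fbxw7* (-0.25), which encodes a ligase component that recognizes c-JUN, *Cops5* (-0.16), first described as a JUN coactivator, and *Cop1* (-0.15), a ligase for JUN proteins, were lower, and *Trib2* (0.26), a pseudokinase that brings substrates to COP1, was higher. Under quantile scaling neither *Trib2* (0.17, adjusted p = 0.111 by limma) nor *Cops5* (-0.10, adjusted p = 0.144 by limma) was called, and *Cops5* was not called without WT replicate 3 (-0.10, adjusted p = 0.0606 by limma). Without WT replicate 1, RORγtN275D replicate 1 or RORγtN275D replicate 2, 2 of the 9 were called. *Itch*, the ligase of JUNB in T cells, was not called (-0.08, adjusted p = 0.248 by limma), and neither were its adaptors *Ndfip1* (0.06) and *Ndfip2* (0.03).

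Heat shock genes, which also respond to handling of cells, had 4 of 7 tested genes lower and 1 higher. The share called was 71.4%, beside 50.9% of all genes, and the median log2 fold change was -0.35. *Hspe1* (-0.46), *Hsph1* (-0.41) and *Dnajb1* (-0.39) were the lowest and *Hspa1b* (0.38) was higher, while *Hspa1a*, its near-identical neighbour, was not called (0.06, adjusted p = 0.728 by limma). Reads shared by *Hspa1a* and *Hspa1b* could be split between them in counting. The part of these genes in the members' values was not tested.

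The genes whose log2 levels followed *Fosl1*, the member with the largest change, most closely over the 6 libraries were *Nup50*, *Polr3d* and *Dusp14* (Pearson's r of 0.998 each). The likeness is a description over 6 libraries that share 2 genotypes. Their log2 fold changes were -0.26, -0.39 and -0.66, each smaller in size than the -0.83 of *Fosl1*.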
